A study of Mus musculus with 10 samples.

Results

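The neuromuscular synapse and neural genes described here are 9 of the 24454 genes in the count table of a mouse mammary cell line given TGFbeta. Chrna1, Lrp4, Dbh and Asic1 were picked because earlier results on the same libraries showed their TGFbeta response or its dependence on the Irf1 siRNA, so their values are a description and carry no test. Chrnb1, Agrn, Musk, Rapsn and Dok7 were added as partners of the acetylcholine receptor, whatever their values, and were tested where their counts allowed it.

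All libraries came from the E9 subclone of NMuMG, an epithelial line from normal mouse mammary gland that turns mesenchymal with TGFbeta (epithelial-mesenchymal transition). The subclone is a single line, and every group carried an siRNA at 20 nM. The 4 groups were siCtr 0 d (control siRNA, no TGFbeta, 2 libraries), siIrf1 0 d (siRNA against Irf1, no TGFbeta, 3 libraries), siCtr TGFbeta (control siRNA, 2 libraries) and siIrf1 TGFbeta (siRNA against Irf1, 3 libraries). TGFbeta was recombinant human TGFbeta1 at 2 ng/ml for 2 d, and all cells were harvested 3 d after transfection. The labels do not say whether libraries came from separate cultures, and p-values may therefore reflect technical spread between the libraries.

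The muscle acetylcholine receptor is a ring of subunits that opens an ion channel when the nerve releases acetylcholine, and Chrna1 and Chrnb1 encode its alpha and beta subunits. At the neuromuscular synapse the nerve secretes agrin (Agrn), which binds Lrp4 and thereby switches on the kinase MuSK (Musk). Dok7 binds MuSK inside the cell and sustains its activity, and rapsyn (Rapsn) anchors the receptors in clusters under the nerve ending. Asic1 encodes an acid-sensing sodium channel of neurons, and Dbh the enzyme that turns dopamine into noradrenaline in sympathetic neurons and adrenal chromaffin cells. Agrin also occurs in epithelial basement membranes.

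Of the 9 genes, 7 have a start site in the RefSeq promoter table (GRCm38.p6), and Lrp4 and Rapsn have none there. The 250 bases before the start of the 2 receptor subunits are shown because their genes answered TGFbeta so differently, and those of Asic1 and Dbh because both genes moved in the same directions as Chrna1. They are written 5′ to 3′ on the gene's strand, with every E-box (the general pattern CANNTG) in capitals. Snail and Zeb factors bind only some forms of this pattern, and the capitals do not mark those forms apart. They lie at chr2:73580339-73580588 (minus strand) for Chrna1, chr11:69795938-69796187 (minus strand) for Chrnb1, chr15:99691974-99692223 (plus strand, inside the span of the gene) for Asic1 and chr2:27165257-27165506 (plus strand) for Dbh.
Chrna1: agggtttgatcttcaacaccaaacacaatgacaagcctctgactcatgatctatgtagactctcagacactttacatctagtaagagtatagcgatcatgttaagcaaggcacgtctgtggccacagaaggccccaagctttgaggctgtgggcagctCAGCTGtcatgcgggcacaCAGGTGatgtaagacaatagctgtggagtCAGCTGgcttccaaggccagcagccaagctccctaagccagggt
Chrnb1: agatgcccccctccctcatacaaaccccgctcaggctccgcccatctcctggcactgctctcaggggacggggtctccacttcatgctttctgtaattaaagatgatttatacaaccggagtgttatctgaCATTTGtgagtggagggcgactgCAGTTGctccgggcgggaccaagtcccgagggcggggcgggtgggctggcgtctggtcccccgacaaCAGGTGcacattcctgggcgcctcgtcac
Asic1: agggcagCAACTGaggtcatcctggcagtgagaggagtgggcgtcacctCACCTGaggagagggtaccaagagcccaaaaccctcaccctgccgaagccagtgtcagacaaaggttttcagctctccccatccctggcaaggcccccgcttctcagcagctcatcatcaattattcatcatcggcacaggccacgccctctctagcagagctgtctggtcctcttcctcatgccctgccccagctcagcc
Dbh: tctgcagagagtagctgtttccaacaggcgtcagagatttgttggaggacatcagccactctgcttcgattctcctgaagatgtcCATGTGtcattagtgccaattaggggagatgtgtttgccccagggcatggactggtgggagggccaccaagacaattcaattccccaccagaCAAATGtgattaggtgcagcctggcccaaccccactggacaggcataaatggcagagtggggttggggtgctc

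Both receptor subunit promoters held 3 E-boxes, beginning 92, 73 and 44 bases before the start in Chrna1 and 119, 96 and 29 bases before it in Chrnb1. The Musk promoter also held 3, those of Asic1 and Dbh held 2 each, and the start sites of Agrn and Dok7 (2 each in the table) held 1 or 0. At least 1 E-box was present in 66.2% of 32851 mouse promoters of the same length, so its presence is common. The sequence CAGAC, a Smad-binding box searched on both strands, occurred 2 times in Chrna1 and in Asic1 and 1 time in Chrnb1 and in Dbh, against 42.2% of all promoters with at least 1. The AP-1 sequence TGANTCA was present in Chrna1 alone of the 7 genes, on the gene's strand and 211 bases before its start (6.75% of all promoters). The interferon regulatory factor pattern GAAA, any 2 bases and GAAA again was in none of the windows of the 7 genes on either strand (2.98% of all promoters), which says only that these letters are not there.

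Levels are given in CPM (the count of a gene scaled to the TMM-adjusted library size), and differences as edgeR log2 fold changes ± SE. Libraries held 27547649 to 67301646 counts. The siRNA target Irf1 was at 106 to 148 CPM in the siCtr libraries and at 36.5 to 64.1 CPM in the siIrf1 libraries. A GC index, the log2 excess of GC-poor over GC-rich transcripts in a library, ran from -1.41 to -0.29 in siCtr and from -0.39 to 0.83 in siIrf1 libraries. Its part in the siRNA differences below was not tested, and fits with a trend of length and GC removed are given where they move a call. Replicate 2 of siIrf1 TGFbeta stood furthest from its group (highest correlation with another library of the group 0.9412, against 0.9787 for the other two). The 2 siCtr 0 d libraries correlated at 0.9494, a value that cannot say which of them stands apart. Replicate 1 of siCtr 0 d had the lowest GC index of all libraries, -1.41 against -0.59 for replicate 3. A like index of long over short transcripts was also lowest there, at -0.69 against -0.17 for replicate 3. Fold values that start from 3 or fewer counts carry a 95% counting interval, and those that start from 0 counts are lower bounds set at 3 counts for the whole group. Such intervals and floors cover counting error only.

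**Figure D1:**
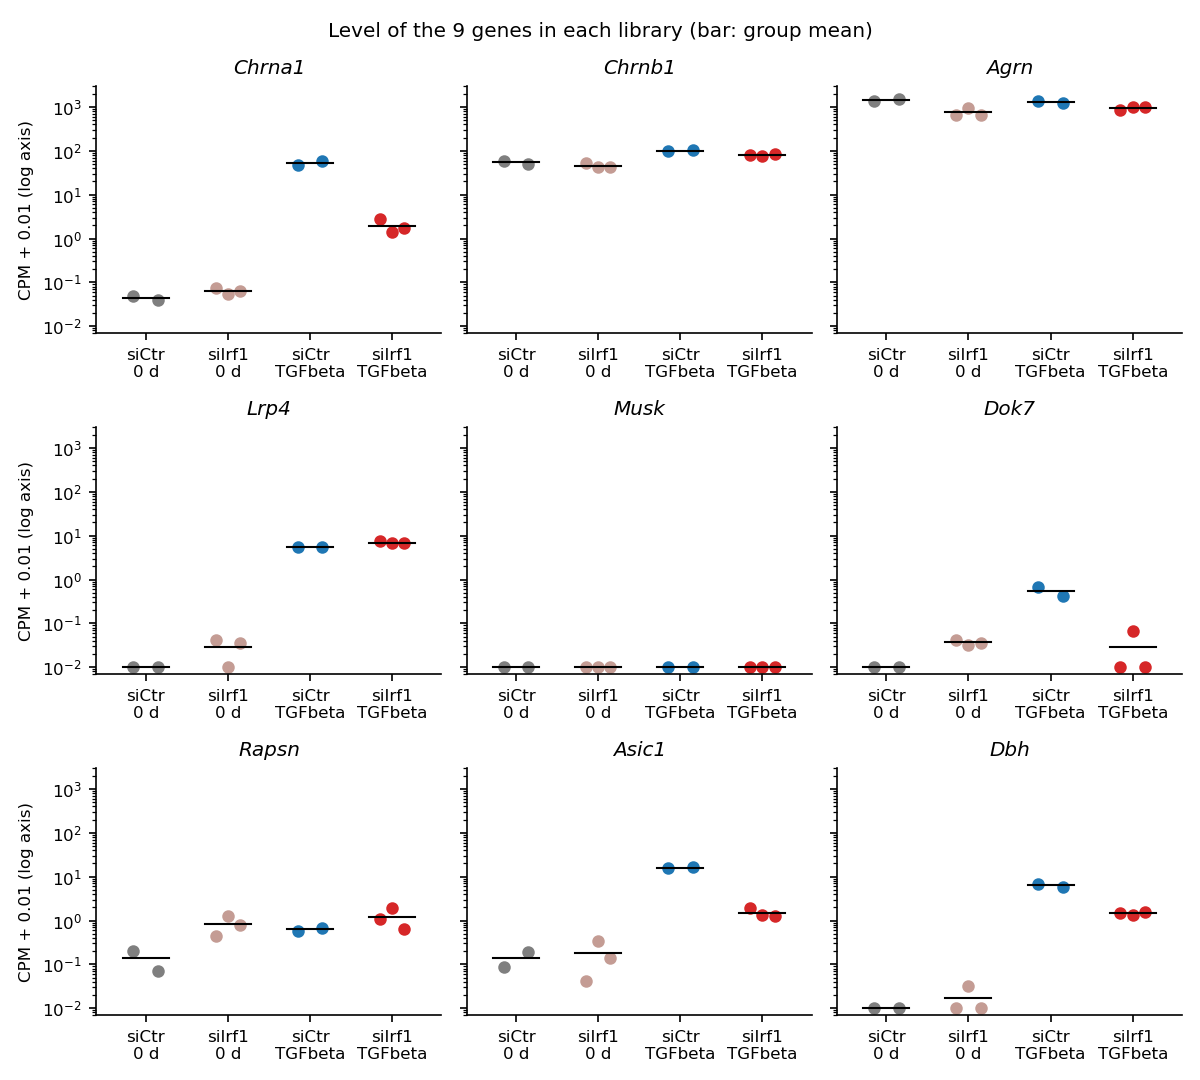
Level of each of the 9 genes in the 10 libraries, as CPM + 0.01 on a log axis, with 1 point for a library and a bar for the group mean. Chrna1, Lrp4, Asic1 and Dbh stand near the floor at 0 d and stand far higher with TGFbeta, Chrnb1 and Agrn are well expressed throughout, and Musk is at 0 everywhere.

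The 2 receptor subunits differed in level and in response. Chrna1 (Entrez gene 11435, chromosome 2, 73563281 to 73580338 on the minus strand, GRCm38.p6), whose product holds most of the acetylcholine-binding site, had 1 and 1 counts in the siCtr 0 d libraries and 2, 2 and 2 in siIrf1 0 d. These are 0.0393 and 0.0303 CPM, and 0.0628, 0.0452 and 0.0528 CPM. With TGFbeta Chrna1 stood at 46.2 and 57.4 CPM in siCtr and at 2.72, 1.39 and 1.72 CPM in siIrf1 libraries. Every TGFbeta library was above every 0 d library, and every siIrf1 library with TGFbeta was far below both siCtr libraries. The level with TGFbeta was 1467-fold that at 0 d in siCtr cells (interval 406 to 12119) and 36.2-fold in siIrf1 cells, where the mean reached 3.74% of the siCtr mean. As log2 fold changes these were 10.43 ± 0.516 and 5.10 ± 0.397, a difference of -5.33 ± 0.927.

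Chrnb1 (gene 11443, chromosome 11, 69784036 to 69795966, minus strand), the beta subunit, was already present without TGFbeta. Its level was 59.4 and 49.8 CPM in siCtr 0 d and 52.3, 43.4 and 42.8 CPM in siIrf1 0 d. In the treated libraries it was 96.5 and 103 CPM in siCtr and 78.6, 75.8 and 85.1 CPM in siIrf1 libraries. The TGFbeta libraries lay above all 0 d libraries, and with TGFbeta the siIrf1 libraries lay below the siCtr libraries. Chrnb1 rose with TGFbeta by 0.87 ± 0.175 in siCtr cells (edgeR quasi-likelihood test, Benjamini-Hochberg adjusted p = 0.00375) and by 0.79 ± 0.143 in siIrf1 cells (adjusted p = 0.00268). Neither rise lost its call in any alternative fit. The siRNA difference of Chrnb1 missed the edgeR threshold at 0 d (-0.24 ± 0.158, adjusted p = 0.256) and in treated cells (-0.32 ± 0.157, adjusted p = 0.194), and so did the difference between the 2 TGFbeta responses (-0.08 ± 0.224, adjusted p = 0.870).

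Per kilobase of the length in the deposited table, the alpha subunit therefore moved from a trace to a sizeable share of the beta subunit. The ratio of Chrna1 to Chrnb1 levels per kilobase in siCtr cells was 0.000329 and 0.000303 at 0 d and 0.238 and 0.276 with TGFbeta. The siIrf1 libraries gave 0.000597, 0.000518 and 0.000613 at 0 d and 0.0172, 0.0091 and 0.01 with TGFbeta. Chrna1 was below Chrnb1 in all 10 libraries. The other muscle subunits were missing: Chrnd and Chrng had 0 counts in every library and Chrne had 2 counts in all, both in siIrf1 0 d cells.

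In the agrin pathway the ligand was abundant, its receptor Lrp4 appeared with TGFbeta, and the kinase was absent. Agrn (gene 11603, chromosome 4, 156165290 to 156197533, minus strand) stood at 1342 and 1480 CPM in siCtr 0 d and at 655, 961 and 657 CPM in siIrf1 0 d. Treated cells had 1343 and 1252 CPM in siCtr and 854, 983 and 985 CPM in siIrf1 libraries. Every siIrf1 library was below the siCtr libraries of the same condition, while the 0 d and TGFbeta libraries of either siRNA overlapped. Agrn was lower with the Irf1 siRNA at 0 d by an edgeR log2 fold change of -0.90 ± 0.183 (adjusted p = 0.00609), a call kept in every alternative, at -0.66 with the length and GC trend removed. With TGFbeta the siRNA difference of -0.46 ± 0.184 was not called by edgeR (adjusted p = 0.113), but was without siIrf1 0 d replicate 2 (adjusted p = 0.0450).

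The TGFbeta effect on Agrn depended on the fit. In siCtr cells it was -0.12 ± 0.203 (edgeR adjusted p = 0.672), and -0.39 (adjusted p = 0.0358) once the length and GC trend was taken out. In siIrf1 cells it was 0.31 ± 0.166 (edgeR adjusted p = 0.236), 0.52 (adjusted p = 0.0283) without siIrf1 0 d replicate 2, and -0.05 with the trend removed. Neither direction can be given for Agrn with TGFbeta from these libraries.

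Lrp4 (gene 228357, chromosome 2, 91457456 to 91513901, plus strand), a low-density lipoprotein receptor relative that is the agrin receptor in muscle and restrains Wnt signals elsewhere, had 0 counts in both siCtr 0 d libraries and 1, 0 and 1 in siIrf1 0 d. With TGFbeta it had 300 and 164 counts in siCtr (5.58 and 5.46 CPM) and 251, 465 and 224 counts in siIrf1 libraries (7.41, 6.72 and 6.74 CPM). All TGFbeta libraries were above all 0 d libraries, and unlike Chrna1, Asic1 and Dbh the siIrf1 libraries with TGFbeta were above the siCtr libraries. Lrp4 was at least 108-fold higher with TGFbeta in siCtr cells and 393-fold higher in siIrf1 cells (interval 109 to 3250). The siIrf1 mean with TGFbeta was 126% of the siCtr mean, a log2 difference of 0.33 ± 0.255. The log2 change of Lrp4 in siIrf1 cells was 8.38, and 7.77 without siIrf1 0 d replicate 2.

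Musk (gene 18198, chromosome 4, 58285729 to 58377848, plus strand), the receptor kinase that Lrp4 and agrin activate in muscle, had 0 counts in all 10 libraries. A count of 0 allows up to 0.0434 to 0.118 CPM, depending on the library. Musk was not detectable at this depth with or without TGFbeta.

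Dok7 (gene 231134, chromosome 5, 35056571 to 35087839, plus strand), the adaptor of MuSK, had 0 counts in both siCtr libraries at 0 d and 1 count in each siIrf1 library. With TGFbeta it had 35 and 12 counts in siCtr (0.651 and 0.400 CPM) and 0, 4 and 0 in siIrf1 libraries. Only the siCtr TGFbeta libraries were above 0.1 CPM, and Dok7 passed the filter on low counts through that group. A gene that enters a test in this way had to differ, so the edgeR calls of Dok7 carry no weight and its values are a description. Its level with TGFbeta was at least 10.9-fold that at 0 d in siCtr cells, and the siIrf1 mean with TGFbeta was 3.67% of the siCtr mean. That share rests on 4 counts, all of them in siIrf1 TGFbeta replicate 2. In siIrf1 cells the TGFbeta ratio was 1.12 (counting interval 0.189 to 7.61).

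Rapsn (gene 19400, chromosome 2, 91035472 to 91045729, plus strand), the receptor scaffold, was scarce but present. It had 5 and 2 counts in siCtr 0 d (0.196 and 0.0606 CPM) and 14, 56 and 30 in siIrf1 0 d (0.440, 1.27 and 0.791 CPM). With TGFbeta it had 31 and 20 counts in siCtr (0.577 and 0.666 CPM) and 36, 133 and 21 in siIrf1 libraries (1.06, 1.92 and 0.632 CPM). The siCtr 0 d libraries were below all others, and the other 3 groups overlapped. At 0 d Rapsn was higher with the Irf1 siRNA (2.77 ± 0.767, edgeR adjusted p = 0.0228). That call was lost without siCtr 0 d replicate 1 (3.73, adjusted p = 0.0534) or 3 (2.15, adjusted p = 0.0998), or siIrf1 0 d replicate 2 (2.32, adjusted p = 0.0531) or 3 (2.81, adjusted p = 0.0509).

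The TGFbeta difference of Rapsn in siCtr cells was 2.31 ± 0.827 and just missed the edgeR threshold (adjusted p = 0.0564). It was called with DESeq2 (adjusted p = 0.0163) and by edgeR when the trend of length and GC was removed (adjusted p = 0.00726), with or without the block. Other fits with a call were those with no filter, of the compared groups alone, and without siIrf1 0 d replicate 1 or siIrf1 TGFbeta replicate 2 or 3. It stayed uncalled with RLE size factors, with the block alone, and without siIrf1 0 d replicate 2 or 3 or siIrf1 TGFbeta replicate 1. Over left-out libraries the value ran from 1.75 to 3.32. In siIrf1 cells the difference was 0.55 ± 0.471 (edgeR adjusted p = 0.489), and with TGFbeta the siRNA difference was 1.00 ± 0.552 (adjusted p = 0.256). Rapsn, Chrna1 and Agrn overlap other annotated genes that are not in the count table, and the use of strand in counting is not given in the sources here. Reads of those genes could therefore be among the counts of these 3 genes.

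Asic1 (gene 11419, chromosome 15, 99670197 to 99701130, plus strand), a proton-gated sodium channel subunit, had a pattern close to that of Chrna1. It was at 0.0785 and 0.182 CPM in siCtr 0 d and at 0.0314, 0.339 and 0.132 CPM in siIrf1 0 d. Treated cells had 15.4 and 16.8 CPM in siCtr and 1.92, 1.32 and 1.23 CPM in siIrf1 libraries. The 0 d groups overlapped, all TGFbeta libraries were above them, and the siIrf1 libraries with TGFbeta were below both siCtr libraries. Asic1 was 123-fold higher with TGFbeta in siCtr cells (6.85 ± 0.647) and 8.89-fold higher in siIrf1 cells (3.03 ± 0.491). With TGFbeta the siIrf1 mean was 9.28% of the siCtr mean, and the difference between the 2 responses was -3.83 ± 0.860. Without siIrf1 0 d replicate 2, whose 15 Asic1 counts exceed those of the other 0 d libraries, the siIrf1 value was 4.07 and the difference -2.79. Without siCtr 0 d replicate 3 the siCtr value was 7.74 and the difference -4.71.

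Dbh (gene 13166, chromosome 2, 27165507 to 27183204, plus strand), dopamine beta-hydroxylase, had 1 count at 0 d in all, in siIrf1 replicate 2. With TGFbeta it had 366 and 177 counts in siCtr (6.81 and 5.90 CPM) and 51, 91 and 51 in siIrf1 libraries (1.51, 1.32 and 1.53 CPM). TGFbeta and 0 d libraries did not overlap, and with TGFbeta the siIrf1 libraries were close together and below the siCtr libraries. Dbh was at least 126-fold higher with TGFbeta in siCtr cells and 161-fold higher in siIrf1 cells (counting interval 28.6 to 6408). The siIrf1 mean with TGFbeta was 22.9% of the siCtr mean, a log2 difference of -2.13 ± 0.273. The log2 change of Dbh with TGFbeta in siIrf1 cells was 6.93, and 8.81 without siIrf1 0 d replicate 2, which held its only count at 0 d.

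**Figure D2:**
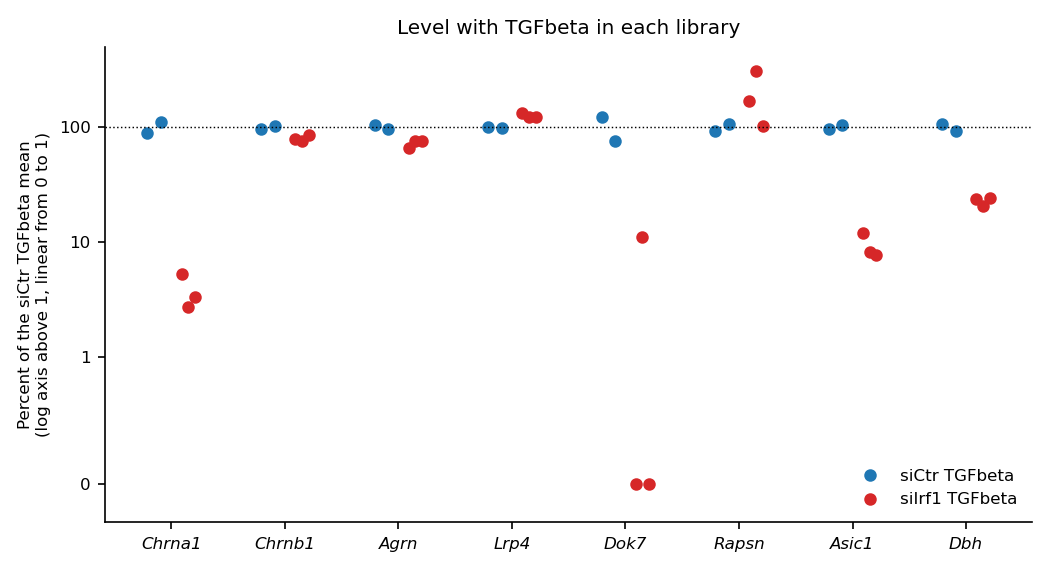
Level with TGFbeta in each library as percent of the siCtr TGFbeta mean, for the 8 genes with counts, on an axis that is log above 1 percent and linear from 0 to 1. The siIrf1 libraries of Chrna1, Asic1 and Dbh lie at mean levels of 3.74, 9.28 and 22.9%, those of Lrp4 lie above 100%, and Rapsn overlaps between the siRNAs.

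Leaving out Dok7, the order of the siIrf1 share among TGFbeta-treated cells was Chrna1 (3.74%), Asic1 (9.28%), Dbh (22.9%), Agrn (72.5%), Chrnb1 (79.8%), Lrp4 (126%) and Rapsn (194%). The first 5 of these had siIrf1 libraries below every siCtr library. Of all genes tested 22.9% were lower without overlap, and nothing is read from the 5, since Chrna1, Asic1 and Dbh were picked for such a pattern. Lrp4 was the only 1 of the 9 whose siIrf1 libraries with TGFbeta all lay above the siCtr libraries, as for 23.4% of genes tested.

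Of the 5 partners Musk did not enter the test, and Dok7 is set aside for the reason given above. Of Chrnb1, Agrn and Rapsn, 1 was called up with TGFbeta in siCtr and in siIrf1 cells (Chrnb1), and none was called down. Over all 13135 genes tested, 16.1% were called up and 16.3% down in siCtr cells, and 11.6% up and 9.71% down in siIrf1 cells. At 0 d the Irf1 siRNA had 1 partner called down (Agrn) and 1 called up (Rapsn), against 31.8% of genes called in either direction. With TGFbeta none of the 3 was called by edgeR for the siRNA difference, against 18% of genes called. For the difference between the 2 TGFbeta responses none was called by edgeR or DESeq2 and none had an unadjusted edgeR p under 0.05, and 4.12% of all genes were called. Nothing is read from these counts of 3 genes.

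Of 25 genes of the postsynaptic apparatus 18 were tested. With TGFbeta 3 were called up and 3 down in siCtr cells, where 16.1% of all genes were called up and 16.3% down. In siIrf1 cells 2 were called up (Colq and Cdk5) and none down, against 11.6% and 9.71% of all genes. The median log2 fold change of the list was 0.40 and 0.39, against 0.02 over all genes in each comparison. Colq, the collagen tail that anchors acetylcholinesterase in the synaptic cleft, had 2 counts in siCtr 0 d and 5 in siIrf1 0 d, against 0.819 and 0.633 CPM in siCtr TGFbeta and 1.21, 1.37 and 1.17 CPM in siIrf1 TGFbeta. The ratio was 22 in siCtr cells (counting interval 5.84 to 185) and 33.2 in siIrf1 cells. Like Dok7, Colq entered the test through the groups where it was high, so its calls carry no weight. Its log2 change was 4.31 in siCtr cells (7.92 without siCtr 0 d replicate 3) and 4.77 in siIrf1 cells (8.61 without siIrf1 0 d replicate 2). Its siIrf1 libraries with TGFbeta, like those of Lrp4, were above the siCtr libraries.

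The kinase Cdk5 rose by 0.54 ± 0.142 in siIrf1 cells (edgeR adjusted p = 0.0201). That call was lost without siIrf1 0 d replicate 1 (adjusted p = 0.0933) or 3 (adjusted p = 0.0729) or siIrf1 TGFbeta replicate 1 (adjusted p = 0.0536). In siCtr cells the Cdk5 difference was close to it but uncalled (0.46 ± 0.174, edgeR adjusted p = 0.0675). The 2 responses were not called different (0.08 ± 0.224, edgeR adjusted p = 0.867). The neuronal acetylcholine receptor subunits stayed near absent: 10 of 11 were under 1 CPM in every library, 5 of them at 0 counts, and Chrnb2 was the only 1 tested.

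Among 19 genes of nerve-derived signals and the synaptic basal lamina 14 were tested. With TGFbeta 4 rose and 5 fell in siCtr cells (median -0.25; 16.1 and 16.3% of all genes), and 2 rose and 3 fell in siIrf1 cells (median 0.02; 11.6 and 9.71% of all genes). The neuregulin receptor Erbb3 fell from 27.2 and 26.6 to 3.98 and 4.60 CPM in siCtr cells (-2.65 ± 0.220, edgeR adjusted p = 1.45e-05). In siIrf1 cells Erbb3 went from 13.5, 17.7 and 14.3 to 8.77, 9.18 and 8.88 CPM (-0.76 ± 0.169, edgeR adjusted p = 0.00857). The difference between these responses was 1.89 ± 0.270 (edgeR adjusted p = 0.00454), a call lost without siCtr TGFbeta replicate 2 (adjusted p = 0.0673).

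The basement membrane linker Nid2 fell by 4.42 on the log2 scale in siCtr cells (SE 0.291, edgeR adjusted p = 4.73e-06), from 18.3 and 22.9 to 0.949 and 0.966 CPM. In siIrf1 cells Nid2 fell by 1.84 (SE 0.216, edgeR adjusted p = 1.72e-04) from a lower start of 5.21 to 6.24 CPM, and the 2 responses differed (2.58 ± 0.343, adjusted p = 0.00332). The collagen IV chain Col4a1, a basement membrane component beside agrin, rose by 2.14 ± 0.219 in siCtr (edgeR adjusted p = 5.49e-05) and 1.37 ± 0.175 in siIrf1 cells (adjusted p = 3.05e-04).

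**Figure D3:**
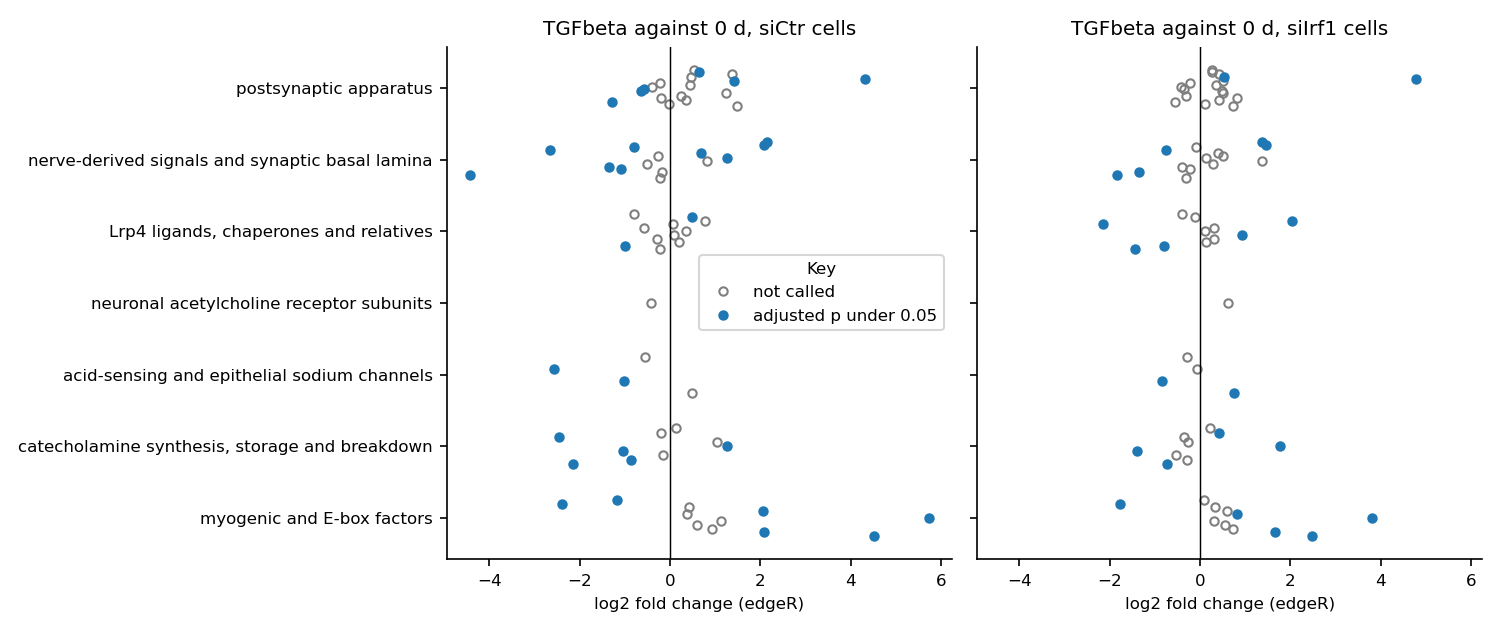
edgeR log2 fold changes with TGFbeta for the tested genes of 7 pathway lists (rows) in siCtr and siIrf1 cells, with 1 point for a gene, filled where the adjusted p was under 0.05. Called genes lie on both sides of 0 in most lists, and the neuronal acetylcholine receptor list has a single tested gene.

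Of 15 ligands, chaperones and relatives of Lrp4, 11 were tested. With TGFbeta 1 rose and 1 fell in siCtr cells (16.1 and 16.3% of all genes), and 2 rose and 3 fell in siIrf1 cells (11.6 and 9.71% of all genes). The endocytic receptor Lrp1 rose in siIrf1 cells by 2.04 ± 0.327 (edgeR adjusted p = 0.00146), and in siCtr cells its difference was 0.78 ± 0.387 (adjusted p = 0.148). Mean Lrp1 was lower in siIrf1 than in siCtr cells, at 41 against 163 CPM at 0 d and 169 against 280 CPM with TGFbeta. This siRNA difference was called at 0 d (-1.99 ± 0.349, edgeR adjusted p = 0.00328) and not with TGFbeta (-0.73 ± 0.347, adjusted p = 0.187). Mean Lrp2 was 3.06 CPM in siIrf1 and 1.03 CPM in siCtr cells at 0 d, and 0.706 and 1.11 CPM with TGFbeta. At 0 d the siRNA difference of Lrp2 was 1.54 ± 0.419 (edgeR adjusted p = 0.0209), and 1.00 without siCtr 0 d replicate 1. That call was lost without siIrf1 0 d replicate 3 (adjusted p = 0.0669), and with TGFbeta the difference was not called (-0.66 ± 0.419, adjusted p = 0.325). Lrp2 (megalin) fell in siIrf1 cells by 2.14 (SE 0.370, edgeR adjusted p = 0.00218) and the reelin receptor Lrp8 rose there by 0.93 ± 0.168 (adjusted p = 0.00263). For none of these 3 was the difference between the siRNAs' TGFbeta responses called by edgeR (adjusted p = 0.0732 to 0.216). Sost, Sostdc1 and Dkk1, secreted Wnt inhibitors, had 0 counts in all libraries.

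Of 11 acid-sensing and epithelial sodium channel genes and their partners 4 were tested, and 5 others, including Asic2, Asic4 and Asic5, had 0 counts in all libraries. Asic3 was not tested and went from 1 count at 0 d to 6 with TGFbeta in siCtr cells, and from 1 to 12 in siIrf1 cells. With TGFbeta none of the 4 rose and 2 fell in siCtr cells (16.1 and 16.3% of all genes), and 1 rose and 1 fell in siIrf1 cells (11.6 and 9.71% of all genes). The epithelial sodium channel subunit Scnn1a went from 62.8 and 62.8 to 11.4 and 9.83 CPM in siCtr cells (-2.56 ± 0.326, edgeR adjusted p = 2.48e-04). In siIrf1 cells it was at 24.8, 43.6 and 26.2 CPM at 0 d and 25.7, 25.8 and 39.6 CPM with TGFbeta (-0.06 ± 0.251, edgeR adjusted p = 0.915). The difference between these Scnn1a responses was 2.51 ± 0.404 (edgeR adjusted p = 0.00837), a call lost without siCtr TGFbeta replicate 2 (adjusted p = 0.0643) or 3 (adjusted p = 0.0687).

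Stomatin (Stom), a membrane protein that tunes acid-sensing channels, fell by 1.01 in siCtr (SE 0.190, edgeR adjusted p = 0.00261) and 0.83 in siIrf1 cells (SE 0.155, adjusted p = 0.00307). The siCtr call of Stom was lost without siCtr TGFbeta replicate 2 (adjusted p = 0.0516). Its relative Stoml1 rose in siIrf1 cells by 0.76 ± 0.206 (edgeR adjusted p = 0.0238). In siCtr cells the Stoml1 difference was uncalled (0.49 ± 0.253, edgeR adjusted p = 0.159), and so was the difference between the 2 responses (0.27 ± 0.325, adjusted p = 0.696). The Stoml1 call was lost in the fit of the compared groups alone (adjusted p = 0.0540) and without siIrf1 0 d replicate 1 or 3 or siIrf1 TGFbeta replicate 1 or 2 (adjusted p = 0.0511 to 0.113).

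Of 20 genes of catecholamine synthesis, storage and breakdown 9 were tested and 12 were under 1 CPM in every library. Tyrosine hydroxylase (Th), the first enzyme of the pathway, the vesicular transporter Slc18a2, the noradrenaline transporter Slc6a2 and the sympathetic regulators Phox2a and Hand2 had 0 counts in all 10 libraries. With TGFbeta 1 gene rose and 4 fell in siCtr cells (median -0.19; 16.1 and 16.3% of all genes), and 2 rose and 2 fell in siIrf1 cells (median -0.28; 11.6 and 9.71% of all genes).

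Ddc, the decarboxylase that makes dopamine, the substrate of Dbh, moved against Dbh. It was at 34.3 and 27.2 CPM in siCtr 0 d and at 4.93 and 6.36 CPM in siCtr TGFbeta, and fell by 2.45 on the log2 scale (SE 0.25, edgeR adjusted p = 5.38e-05). In siIrf1 cells it was at 40.3, 43.9 and 49.1 CPM at 0 d and 27.9, 40.8 and 35.6 CPM with TGFbeta (-0.35 ± 0.191, edgeR adjusted p = 0.243). With TGFbeta Ddc was higher in siIrf1 than in siCtr cells by 2.63 ± 0.241 (edgeR adjusted p = 1.54e-04). The difference between its TGFbeta responses was 2.09 ± 0.309 (edgeR adjusted p = 0.00525), a call lost without siCtr TGFbeta replicate 2 (1.83, adjusted p = 0.0686).

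Gch1, which starts the synthesis of the cofactor of tyrosine hydroxylase, rose by 1.26 ± 0.248 in siCtr (edgeR adjusted p = 0.00339) and 1.76 ± 0.210 in siIrf1 cells (adjusted p = 1.87e-04). Monoamine oxidase A (Maoa), which breaks noradrenaline down, fell by 1.03 in siCtr (SE 0.2, edgeR adjusted p = 0.00320) and 1.39 in siIrf1 cells (SE 0.165, adjusted p = 1.87e-04). The siCtr call of Maoa was lost without siCtr TGFbeta replicate 2 (-0.81, adjusted p = 0.0781).

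The vesicular monoamine transporter Slc18a1, which loads chromaffin granules, was at 4.08 and 2.76 CPM in siCtr 0 d and at 2.17, 1.90 and 2.35 CPM in siIrf1 0 d. Levels in treated cells were 0.763 and 0.766 CPM in siCtr and 1.15, 1.2 and 1.5 CPM in siIrf1 libraries, and within each siRNA the TGFbeta libraries were below the 0 d libraries. Slc18a1 fell by 2.15 in siCtr (SE 0.299, edgeR adjusted p = 3.92e-04) and by 0.74 in siIrf1 cells (SE 0.233, adjusted p = 0.0474). The siIrf1 call of Slc18a1 was lost with the replicate block (edgeR adjusted p = 0.0606), RLE size factors, either other filter and the compared groups alone, and without each siCtr TGFbeta library, each siIrf1 0 d library and siIrf1 TGFbeta replicates 1 and 2 (adjusted p = 0.0509 to 0.164 over these fits).

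**Figure D4:**
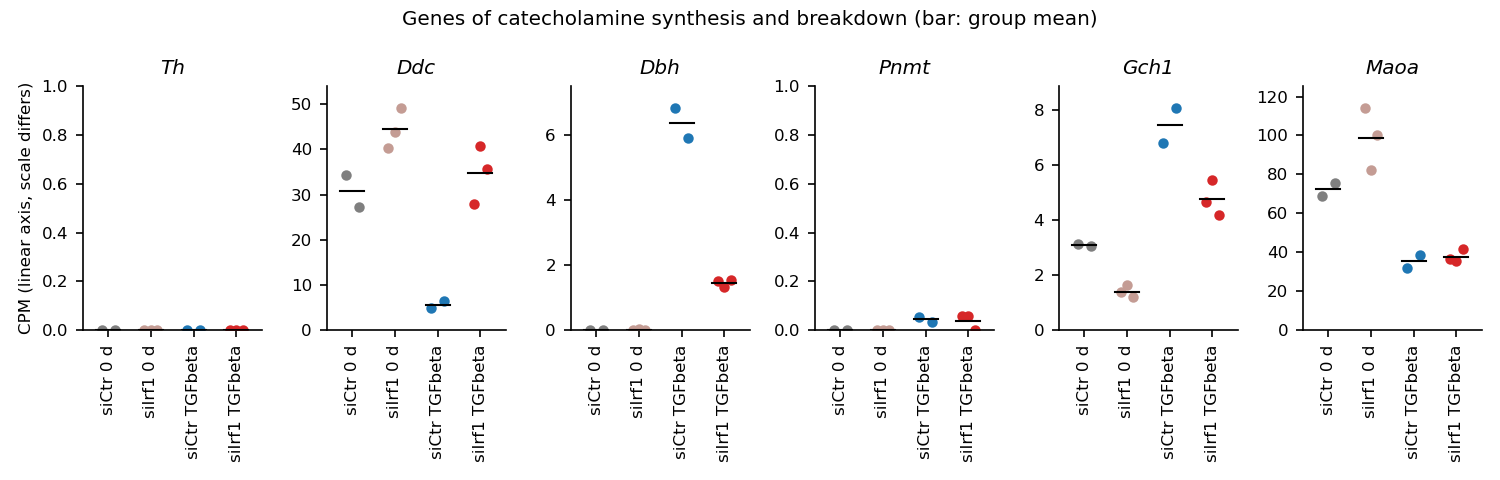
Level in CPM (linear axes from 0, with a scale for each gene) of Th, Ddc, Dbh, Pnmt, Gch1 and Maoa in the 10 libraries, with 1 point for a library and a bar for the group mean. Dbh is highest and Ddc lowest in the siCtr TGFbeta libraries (5.90 and 6.81 CPM against 4.93 and 6.36 CPM), and Th is at 0 throughout.

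Among 19 myogenic and E-box factors 11 were tested. With TGFbeta 4 rose and 2 fell in siCtr cells (median 0.92; 16.1 and 16.3% of all genes), and 4 rose and 1 fell in siIrf1 cells (median 0.59; 11.6 and 9.71% of all genes). The E-box repressor Snai1 rose by 5.73 ± 0.450 in siCtr (edgeR adjusted p = 1.1e-05) and 3.81 ± 0.327 in siIrf1 cells (adjusted p = 2.52e-05), and Zeb2 by 4.52 ± 0.661 (adjusted p = 5.96e-04) and 2.48 ± 0.469 (adjusted p = 0.00372). Id2, which keeps E-box activators from binding, fell by 2.38 in siCtr (SE 0.313, edgeR adjusted p = 3.19e-04) and 1.78 in siIrf1 cells (SE 0.249, adjusted p = 6.30e-04). In siCtr cells the value of Zeb2 was 3.82 without siCtr 0 d replicate 1 and 6.67 without replicate 3, that of Id2 was -2.80 and -1.59, and that of Snai1 was 6.45 without replicate 1. Each kept its call. The myogenic activators Myod1 and Myf5, as well as Twist1, had 0 counts in all libraries.

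Markers of the cells that normally carry these genes were largely missing. Of 20 skeletal muscle markers 18 were under 1 CPM in every library and Myh1, Myh8 and Myod1 were at 0. Their summed level was 8.12 to 12.8 CPM at 0 d, 56.2 to 57.8 CPM in siCtr TGFbeta and 17.1 to 29.5 CPM in siIrf1 TGFbeta. Most of it was skeletal alpha-actin (Acta1, 52.9 and 54.7 CPM in siCtr TGFbeta). Of 13 neuron markers 11 were under 1 CPM, with Map2, Snap25, Elavl4 and Dcx at 0. Their sum went from 1.45 to 1.88 CPM at 0 d to 20.4 and 26.2 CPM in siCtr TGFbeta and 4.84 to 12.3 CPM in siIrf1 TGFbeta. With TGFbeta it was mostly the tubulin Tubb3 (20.1 and 26.2 CPM in siCtr TGFbeta). In siIrf1 0 d libraries Tubb3 was at 0.879, 0.701 and 0.58 CPM and Syt1 at 0.722, 0.633 and 1 CPM. Syt1 was at 0 and 0.0606 CPM in siCtr 0 d.

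The summed chromaffin markers were lower with TGFbeta (0.799 to 1.5 CPM, against 1.90 to 4.08 CPM at 0 d), with 7 of 8 under 1 CPM and Th, Phox2a and Npy at 0. Of 9 Schwann cell markers 6 were under 1 CPM and Ngfr was at 0, and the sum of 151 to 260 CPM came mostly from Mbp and Pmp22. Fibroblast and pericyte markers summed to 0.515 to 1.1 CPM at 0 d, 34.5 and 39.0 CPM in siCtr TGFbeta and 27.2 to 31.4 CPM in siIrf1 TGFbeta. With TGFbeta this sum was lower in siIrf1 than in siCtr libraries, and it was mostly Pdgfrb and Col1a1. The siRNA difference of these genes with TGFbeta was not called by edgeR (-0.30, adjusted p = 0.423, and -0.40, adjusted p = 0.381). Dcn had 0 counts in all siCtr libraries, 0.384 to 0.58 CPM in siIrf1 0 d and 0.332 to 1.08 CPM in siIrf1 TGFbeta. Col1a2, Thy1 and Lum were at 0. Epithelial markers summed to 6665 to 13706 CPM over all libraries, mostly keratins, as the label of the line says. The sum was 10605 and 9217 CPM in siCtr 0 d and 13706 and 12826 CPM in siCtr TGFbeta. It was 8052 to 9185 CPM in siIrf1 0 d and 6665 to 11584 CPM in siIrf1 TGFbeta. In siCtr cells with TGFbeta Krt18 rose (0.95), while Cdh1 (-0.87), Krt19 (-2.99) and Ocln (-1.23, and -0.98 without siCtr TGFbeta replicate 2) fell. In siIrf1 cells Krt19 (-1.17) and Ocln (-1.01) fell too, and Krt18 (0.13, edgeR adjusted p = 0.643) and Cdh1 (0.15, adjusted p = 0.516) were not called. The siIrf1 call of Krt19 was lost without siIrf1 TGFbeta replicate 1 (edgeR adjusted p = 0.0533). Cldn4 was under 1 CPM in every 0 d library and at 65.8 and 68 CPM in siCtr TGFbeta. Epcam and Cldn3 had at most 1 count in any library, and Esrp1 was under 1 CPM throughout. The part of these markers in the values of the 9 genes was not tested. In such bulk libraries fewer cells with a transcript and less transcript in a cell cannot be told apart.

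The genes most like each picked gene over the 10 libraries were found by Pearson correlation of log2 CPM, which here follows the split into groups. For Chrna1 they were Prr9 (r = 0.998), Laptm5 (r = 0.995) and Nppb (r = 0.995). Nppb, the natriuretic peptide B gene, was at 9.23 and 10.1 CPM in siCtr TGFbeta, 2.01, 1.47 and 1.29 CPM in siIrf1 TGFbeta and 0.118 to 0.188 CPM at 0 d. For Asic1 they were the semaphorin receptor Plxnd1 (r = 0.987), Prss50 (r = 0.986) and the fast troponin Tnnt3 (r = 0.981). Plxnd1 differed from Asic1 in being present at 0 d, with means of 37.0 CPM in siCtr and 37.7 CPM in siIrf1 against 278 and 120 CPM with TGFbeta.

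For Dbh the closest were Sdc3, a syndecan of neural tissue (r = 0.999), Clu (r = 0.995) and Vash1 (r = 0.995). Mean Sdc3 levels were 1.89 CPM in siCtr 0 d, 2.23 CPM in siIrf1 0 d, 153 CPM in siCtr TGFbeta and 38.1 CPM in siIrf1 TGFbeta. Lrp4 had other neighbours, the pericyte receptor Pdgfrb (r = 0.997) and the matrix genes Adamtsl2 (r = 0.996) and Ltbp2 (r = 0.994). Mean Pdgfrb levels were 20.7 CPM in siCtr TGFbeta and 16.8 CPM in siIrf1 TGFbeta, against at most 0.0628 CPM in any 0 d library. These correlations share the same 10 libraries, and several of the genes have 0 counts in whole groups, so they describe the order of groups and carry no test.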

How the data were processed

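RNA of 10 libraries of the NMuMG subclone was sequenced. Alignment used STAR and the mouse build mm10 (GRCm38), per the submitters' processing notes, and neither the STAR version nor the counting method is known from the sources used here. The deposited table gave whole-number read counts for 24454 Entrez genes and a gene length, per the file headers. RefSeq (GRCm38.p6) gave symbols and coordinates of 24374 genes, GENCODE M21 those of 7 more, and 73 stayed unnamed. Promoter sequences came from RefSeq.

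Counts were fitted with edgeR 4.0.16 in R 4.3.3 (TMM, filterByExpr, robust quasi-likelihood test) with a term for each of the 4 groups. The fit kept 13135 genes, 8 of the 9 members among them, and had 6 residual degrees of freedom. The Benjamini-Hochberg adjustment ran over all genes of a comparison, with a threshold of 0.05, and "rose" and "fell" are used for partner and pathway genes past it. The 5 comparisons were TGFbeta against 0 d for each siRNA, siIrf1 against siCtr at 0 d and with TGFbeta, and the interaction. The code was tested on simulated data.

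The members, lists and tests were chosen with earlier results of these data known. Named were all 9 members, up to 3 called genes of a pathway list, the 3 genes most correlated with each picked gene, and defining markers. Some further genes are named after their values were seen, because their counts were 0 or to spell out a small count. Some genes that the rule gives are left out.

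Alternatives were RLE size factors, no filter, a stricter filter (at least 2 CPM in 3 or more libraries), DESeq2 1.42.0, a fit of only the groups compared, a block for the replicate number, removal of a length and GC trend (splines with 5 degrees of freedom), the same with the block, and leaving out each library. For pathway genes the same alternatives were added after seeing the data. Deviations of same-numbered libraries of siIrf1 0 d and siIrf1 TGFbeta correlated weakly to moderately (r = 0.114 to 0.531 for 3 pairs), and the block was read as a pairing there. The p-values reported for that comparison still come from the fit without the block. Same-numbered libraries of siIrf1 0 d and siCtr 0 d (r = 0.135 and 0.495) and of siIrf1 0 d and siCtr TGFbeta (r = 0.329 and 0.118) also correlated positively. The titles carry a second tag that goes with the replicate number in every group, and the labels do not say what it marks. Over all groups the 12 correlations ran from -0.678 to 0.531, and 8 of them were over 0.1. For the other comparisons the numbers were not read as a pairing, which is a choice that these correlations do not settle.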

Additional observations from a re-analysis of the deposited data

Results flagged for a closer look

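Among the pathway and marker genes named, 6 had a TGFbeta response that differed between siCtr and siIrf1 cells by edgeR's test of the interaction. Of all 13135 genes tested 4.12% were called there. Most of the genes named were chosen for a TGFbeta call in these same libraries, so nothing is read from the number 6. Outside that choice, Cdh1 (1.01, edgeR adjusted p = 0.0262) and Dtnb (1.13, adjusted p = 0.0349) of the same lists were called too. Erbb3 (1.89) and Nid2 (2.58) fell in both and less in siIrf1 than in siCtr cells. Ddc (2.09) and Scnn1a (2.51) fell in siCtr cells and were not called in siIrf1 cells (-0.35, edgeR adjusted p = 0.243, and -0.06, adjusted p = 0.915). The differences of Ddc, Scnn1a and Erbb3 lost their call without siCtr TGFbeta replicate 2 (edgeR adjusted p = 0.0686, 0.0643 and 0.0673), and that of Scnn1a also without siCtr TGFbeta replicate 3 (adjusted p = 0.0687). The keratin gene Krt19 also fell less in siIrf1 cells (1.82, edgeR adjusted p = 0.0487), and its call was lost in turn without each of 7 of the 10 libraries. With all libraries in, the Krt19 call was lost with RLE size factors (adjusted p = 0.0504), no filter (adjusted p = 0.0728) and the stricter filter (adjusted p = 0.072). The myelin gene Pmp22 rose by 0.98 in siCtr cells and was not called in siIrf1 cells (0.00, edgeR adjusted p = 0.999), a difference of -0.98 (edgeR adjusted p = 0.0480). The call of this difference was lost with the replicate block (adjusted p = 0.0668), with no filter (adjusted p = 0.0545) and without each of 8 of the 10 libraries.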

How the results depend on the processing

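Over 312 alternative values of the partner genes, 282 kept their direction and side of the threshold, 12 gained a call, 5 lost it and 13 changed sign. These and the counts of partners below include Dok7, whose calls carry no weight. The sign changes were all of uncalled values: Chrnb1 at 0 d (0.02 with the trend removed, 0.06 with the block as well) and its interaction (-0.25 to 0.02 over left-out libraries), Agrn in siCtr (-0.15 to 0.07 over left-out libraries) and in siIrf1 cells (-0.05 with the trend removed, with or without the block), and Dok7 in siIrf1 cells. The last was -0.04 with the replicate block, -0.21 with the trend removed, -0.30 with both, -0.05 with DESeq2 and -3.10 to 0.47 over left-out libraries. With the replicate block in siIrf1 cells, where the numbers were read as a pairing, no partner call changed. Partners called with TGFbeta in siCtr cells numbered 1 under the stricter filter and 4 with the trend removed, with or without the block (2 to 3 over left-out libraries). The number was 1 to 2 in siIrf1 cells over left-out libraries. For the siRNA it was 1 at 0 d and 0 with TGFbeta under the stricter filter, and 1 to 2 and 0 to 2 over left-out libraries. Genes called over the whole table ranged over left-out libraries from 2297 to 5159 (TGFbeta in siCtr), 1957 to 3300 (in siIrf1), 1700 to 5192 (siRNA at 0 d), 762 to 2978 (siRNA with TGFbeta) and 122 to 1590 (interaction). With the trend removed they were 4240 for TGFbeta in siIrf1, 3632 for the siRNA with TGFbeta and 1245 for the interaction, which was 901 with the block too and 1171 with DESeq2 (541 in the fit reported). Of 276 values of the picked genes 249 moved by less than the SD between replicates and 27 by more, among them Asic1 between the siRNAs at 0 d (-0.65 to 1.22 over left-out libraries). Of 1389 values of called pathway genes 111 lost the call and none changed sign. The cause of these changes was not tested. Depth limits Musk, Dok7, Rapsn and all 0 d values of Chrna1, Lrp4, Asic1 and Dbh.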
